A study of Mus musculus with 29 samples.

Results

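The 10 genes followed here, P2ry12, P2ry13, Tmem119, Sall1, Cx3cr1, Siglech, Gpr34, Olfml3, Csf1r and Aif1, are commonly used to recognise microglia, and most of them mark the homeostatic, surveying state of these cells. They were taken as the rows of the count tables whose Ensembl identifiers map to these symbols, 10 of 25746 genes, and all 10 passed the filter on low counts and were tested with 17031 genes in all. RNA came from cortex in 29 libraries, and the 18 stroked ones were taken at 21 days post injury (dpi), the injury being a photothrombotic stroke, in which a light-activated dye closes cortical vessels. The non-stroked groups were WT (C57BL/6J, n = 4), Rag2-/- (n = 3) and NSG (n = 4). The stroked groups were WT (n = 4), WT given tacrolimus, an inhibitor of T cell activation, through an osmotic pump from the day of stroke (WT-Tacr acute, n = 3) or from a week later (WT-Tacr delayed, n = 5), Rag2-/- (n = 3) and NSG (n = 3). Without Rag2 no mature T or B cells form; NSG animals are on the NOD background and lack NK cells as well, so that immune genotype and strain background cannot be told apart in NSG. The labels call the non-stroked samples controls, and the study describes them both as naïve and as contralesional tissue, so that neither this nor whether each came from a separate mouse is settled here. All mice were 3 months old and of both sexes.

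Microglia are the resident macrophages of the brain parenchyma. Their survival depends on the receptor CSF1R, and they sense their surroundings through nucleotide receptors such as P2RY12 and the fractalkine receptor CX3CR1. In injury and disease models, microglia near a lesion are known to lower P2ry12, Tmem119 and related genes while they gain a disease-associated set that includes Clec7a and Cst7. Bulk tissue was measured, so that fewer cells of a type and less RNA per cell cannot be told apart.

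Libraries held 17789044 to 43403413 counts. They carried 2 title prefixes, Imm2 (20 libraries) and TF (9 libraries), taken here as cohorts. The TF cohort held every WT-Tacr delayed library, 2 of 3 WT-Tacr acute and 2 of 4 stroked WT libraries, and no non-stroked one, and it was the shallower (median 23155303 against 37223696 counts). Of the genes disrupted in the strains, Rag2 had at most 2 counts in any library and so checks no label, Prkdc was counted in every library, and Il2rg stayed below 1 CPM (counts scaled by library size) in stroked NSG against 2.02 to 3.61 CPM in stroked WT. Choroid plexus genes were high in some libraries and near the floor in others of the same group: the sum of 8 such genes ran from 10.7 to 848 CPM in non-stroked WT. Non-stroked WT replicate 3 alone held serotonergic midbrain RNA, with Tph2 at 19.6 CPM where every other library was below 2 CPM. In WT-Tacr acute the libraries were split. Replicate 3 carried 445 CPM summed over the 10 genes, within the 390 to 471 CPM of stroked WT. Replicates 1 and 2 carried 267 and 288 CPM, near the 231 to 270 CPM of non-stroked WT. The disease-associated gene Clec7a had as few as 2 counts in this group, where each library of the other stroked groups had 331 or more.

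All 10 genes were well above the counting floor, the lowest single value being 72 counts for Aif1. CPM of these genes were scaled by TMM factors, and levels between genes were compared as CPM per kilobase of exon. In non-stroked WT cortex Csf1r (14.2 ± 0.862 CPM per kb, SD, n = 4) and P2ry12 (12.6 ± 2.01) stood highest and their ranges overlapped. Cx3cr1 followed at 8.95 ± 0.846 CPM per kb, below both. Sall1 (6.57 ± 0.433) and Tmem119 (6.05 ± 0.778) overlapped each other, as did P2ry13 (4.01 ± 0.635), Olfml3 (3.30 ± 0.284), Gpr34 (3.05 ± 0.351) and Siglech (3.03 ± 0.366). Aif1 was lowest, at 1.68 ± 0.347 CPM per kb. After stroke in WT mice the order changed: Csf1r stood alone at 29.3 ± 4.37 CPM per kb, while P2ry12 (13.4 ± 2.64) now lay among Cx3cr1 (14.9 ± 1.98) and Tmem119 (12.9 ± 1.18).

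**Figure D1:**
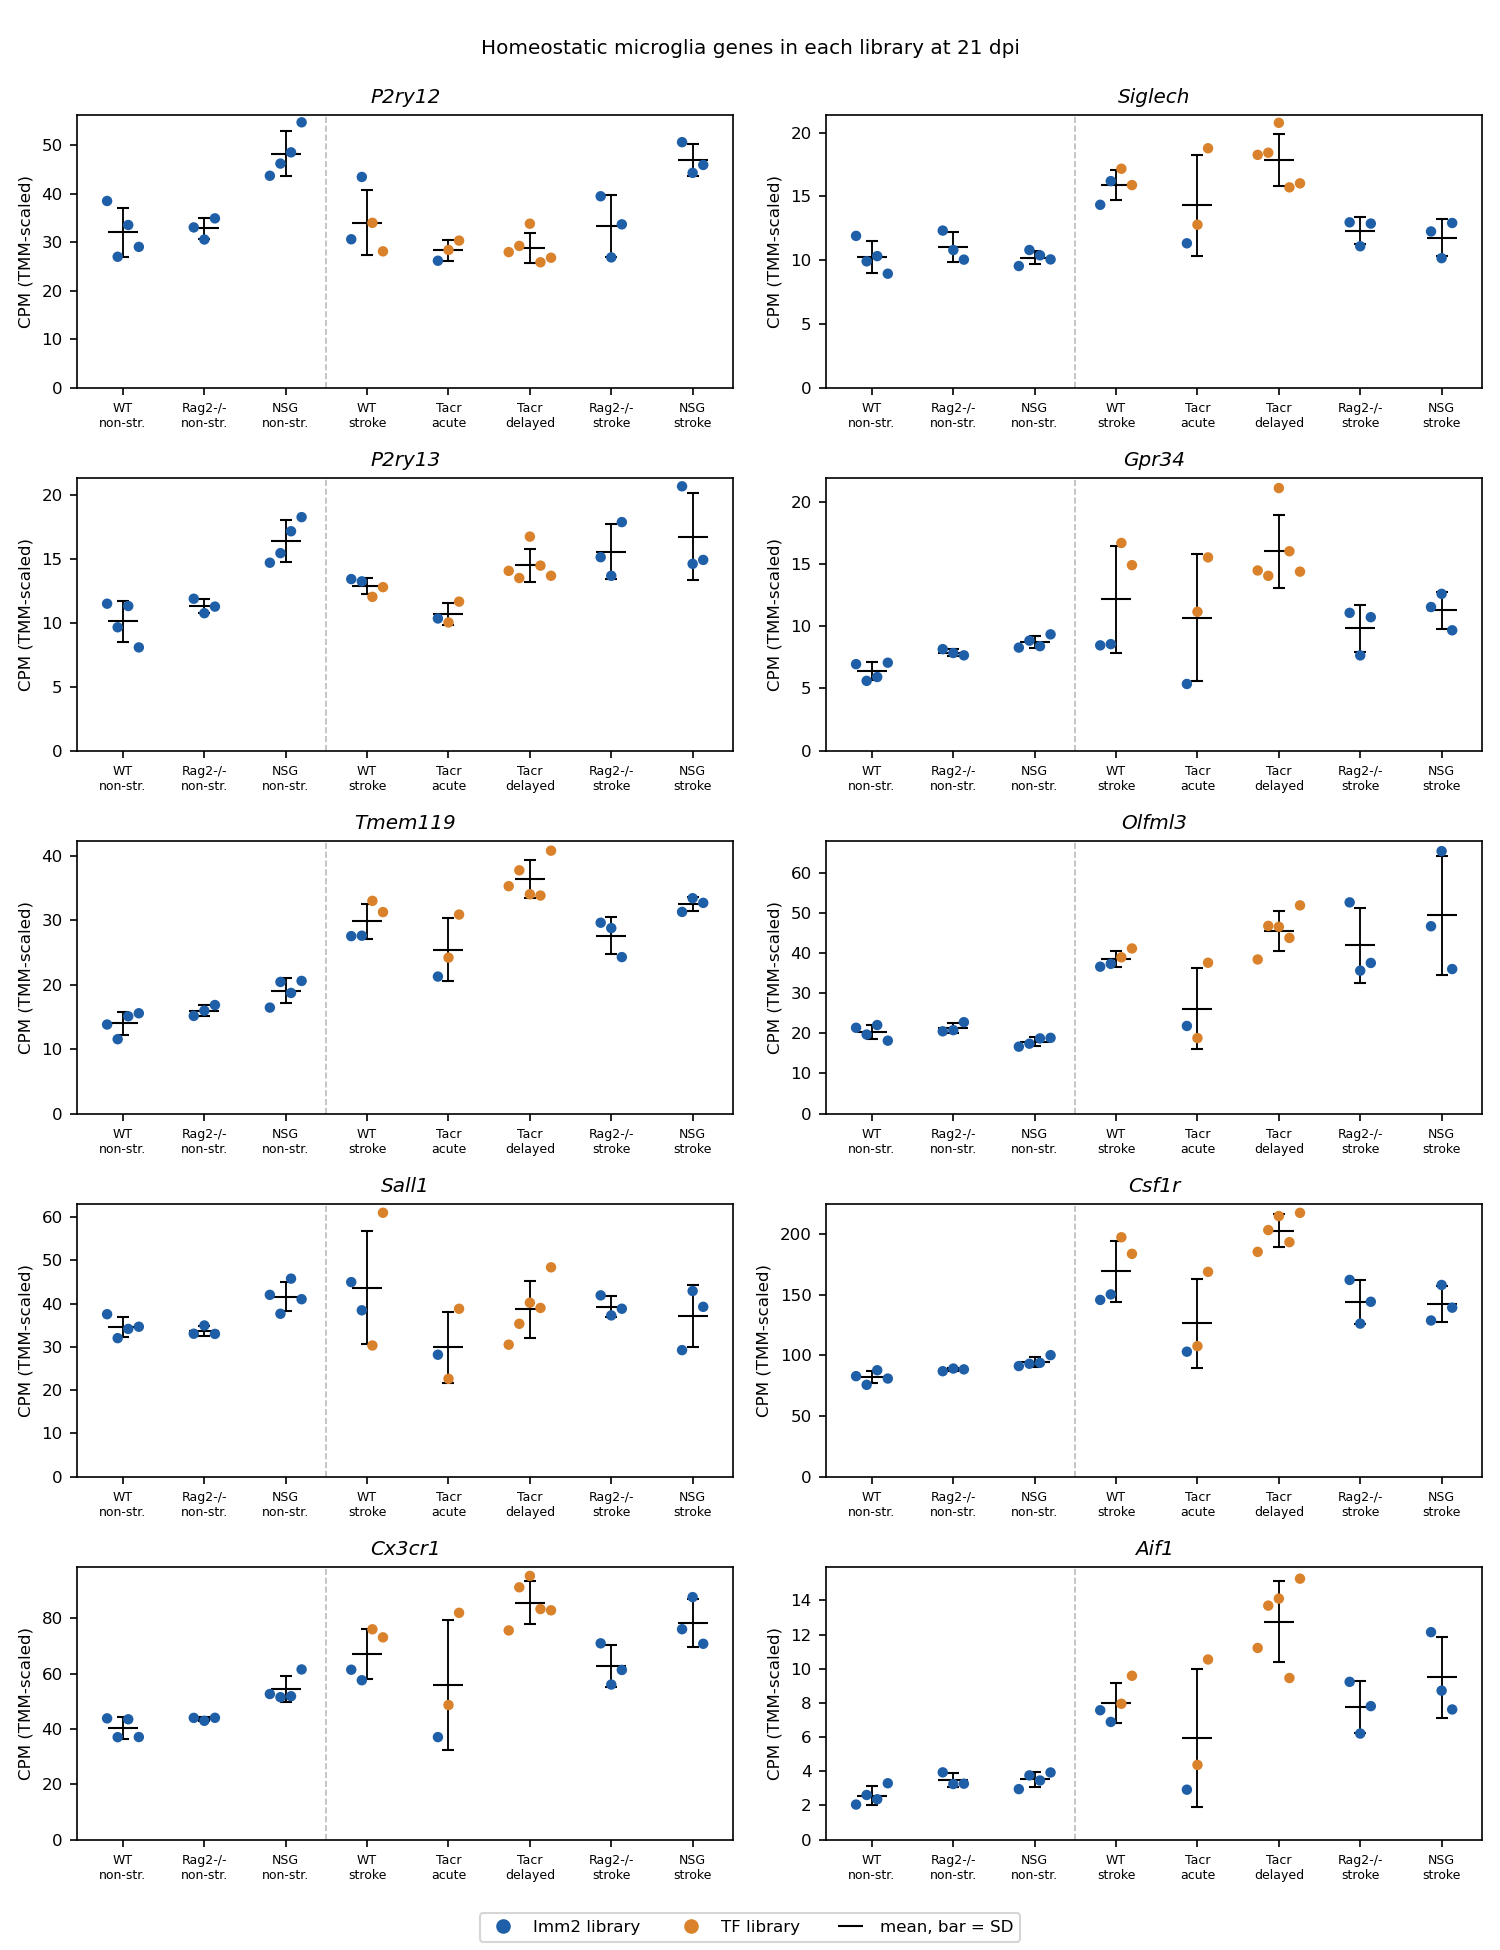
TMM-scaled CPM (vertical axes, from 0) of each of the 10 genes in every library, by group along the horizontal axis; points are libraries coloured by cohort, the horizontal mark is the mean and the bar the SD, and non-stroked groups lie left of the dashed line. Csf1r, Tmem119, Olfml3 and Aif1 lie higher in the stroked than in the non-stroked libraries of WT, Rag2-/- and NSG, whereas P2ry12 stays near 30 CPM in WT and Rag2-/- and near 48 CPM in NSG.

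The comparison of stroked with non-stroked WT cortex asked how the injury changed these genes. At 21 dpi, 8 of the 10 genes were higher and none was lower, where 15.2% of all 17031 genes tested were higher at an adjusted p below 0.05. The median log2 fold change of the 10 genes was 0.83, beside a median of all genes near 0. P2ry12 and Sall1 did not pass. The libraries of the groups did not overlap for 8 of the 10 genes, against 29.8% of all genes.

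Csf1r encodes the receptor for the growth factors CSF1 and IL-34 (GRCm38 chromosome 18, 61100598 to 61132149, plus strand). It stood at 82.8, 75.6, 87.7 and 80.8 CPM in the 4 non-stroked WT libraries and at 146, 150, 197 and 184 CPM in the stroked ones. Every stroked library was above every non-stroked one, with a log2 fold change of 1.05 ± 0.12 (SE, edgeR quasi-likelihood test, adjusted p = 6.84e-06). The opposite-strand gene Hmgxb3 shares 873 exonic bases with Csf1r, which is 15.1% of its exon length. Hmgxb3 itself stood at a log2 fold change of -0.10 ± 0.07 and did not pass.

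Tmem119, a microglial transmembrane protein of which the role is not well known (chromosome 5, 113793729 to 113800516, minus strand), ran from 11.5 to 15.6 CPM without stroke and from 27.5 to 33.0 CPM after it. Its log2 fold change of 1.09 ± 0.11 (adjusted p = 1.2e-06) had the smallest adjusted p of the 10 genes. Olfml3, a secreted olfactomedin-like protein (chromosome 3, 103722222 to 103738001, minus strand), ran from 18.2 to 22.1 CPM and then from 36.6 to 41.1 CPM, a log2 fold change of 0.92 ± 0.17. Aif1, which encodes the actin-binding protein IBA1 (chromosome 17, 35170991 to 35176068, minus strand), was at 2.05, 2.61, 2.36 and 3.30 CPM and rose to 7.57, 6.89, 7.95 and 9.59 CPM. This was the largest change of the 10 genes, at 1.63 ± 0.26 on the log2 scale (adjusted p = 0.000112). IBA1 is shared by microglia and other macrophages, and 10 of 12 border-associated macrophage genes and 6 of 8 monocyte genes were also higher in this comparison, against 15.2% of all genes. The part of such cells in the levels of Aif1 and Csf1r was not tested.

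Cx3cr1 (chromosome 9, 119901616 to 120069879, minus strand), the receptor for the neuronal ligand CX3CL1, stood between 37.0 and 43.8 CPM without stroke and at 61.4, 57.6, 76.0 and 73.1 CPM after it (log2 fold change 0.73 ± 0.15, adjusted p = 0.00118). Siglech, a sialic acid-binding lectin (chromosome 7, 55768178 to 55778925, plus strand), ran from 8.93 to 11.9 CPM and then from 14.3 to 17.2 CPM (0.63 ± 0.13). Neither gene's groups overlapped.

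Gpr34, a receptor for lysophosphatidylserine (chromosome X, 13632089 to 13640858, plus strand), rose by less where cohort was taken into account. The stroked WT libraries of cohort Imm2 were at 8.46 and 8.56 CPM and those of cohort TF at 16.7 and 14.9 CPM, while the non-stroked libraries, all of Imm2, ran from 5.60 to 7.06 CPM. The pooled log2 fold change of 0.92 ± 0.23 (adjusted p = 0.00556) became 0.42 (adjusted p = 0.0892) in Imm2 libraries alone. Imm2 alone holds only part of the stroked WT libraries, and 1528 of all genes were called there against 4579 in the pooled fit. P2ry13 lost its call within Imm2 (log2 fold change 0.40, adjusted p = 0.119), though its fold change was no smaller than the pooled one. Csf1r (0.86), Tmem119 (0.98), Olfml3 (0.87), Aif1 (1.49), Cx3cr1 (0.57) and Siglech (0.58) kept their calls.

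P2ry12 and P2ry13 are nucleotide receptors that lie side by side on chromosome 3, at 59216272 to 59262871 and 59207892 to 59210882 on the minus strand, inside the span of Med12l on the opposite strand. P2RY12 responds to ADP and guides the movement of microglial processes toward injury. P2ry12 stood at 38.5, 27.0, 33.5 and 29.02 CPM in non-stroked WT and at 30.6, 43.5, 34.0 and 28.1 CPM in stroked WT, so that the ranges overlapped almost completely. Its log2 fold change was 0.09 ± 0.13, with a 95% interval of -0.18 to 0.35. P2ry13 ran from 8.08 to 11.5 CPM and then from 12.04 to 13.4 CPM. Its rise was the smallest of those that passed, at 0.35 ± 0.12 (adjusted p = 0.0341), and the call was lost without stroked replicate 1, 2 or 4 or non-stroked replicate 3 or 5, with adjusted p up to 0.135. Med12l shares 9 exonic bases with P2ry12 and none with P2ry13, and it fell by 0.50 on the log2 scale.

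The windows around the RefSeq start sites of P2ry12, P2ry13 and Aif1 are printed as those of the gene with the smallest change in WT, its neighbour and the gene that rose most (RefSeq on GRCm38.p6, 250 bases before the start site and 50 after, 5′ to 3′ on the gene's strand, chr3:59262936-59263235, chr3:59210833-59211132 and chr17:35176003-35176302, all minus). Capitals mark AGGAAGT, a form of the site to which the myeloid factor PU.1 and other ETS factors bind, searched on both strands. Shorter or other forms of this site were not searched and are not marked.
P2ry12: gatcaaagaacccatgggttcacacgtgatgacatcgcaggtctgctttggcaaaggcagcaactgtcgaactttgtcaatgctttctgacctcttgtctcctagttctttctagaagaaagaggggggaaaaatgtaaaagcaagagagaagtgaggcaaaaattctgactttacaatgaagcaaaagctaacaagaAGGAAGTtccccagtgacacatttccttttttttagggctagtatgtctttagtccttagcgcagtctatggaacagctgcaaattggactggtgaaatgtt
P2ry13: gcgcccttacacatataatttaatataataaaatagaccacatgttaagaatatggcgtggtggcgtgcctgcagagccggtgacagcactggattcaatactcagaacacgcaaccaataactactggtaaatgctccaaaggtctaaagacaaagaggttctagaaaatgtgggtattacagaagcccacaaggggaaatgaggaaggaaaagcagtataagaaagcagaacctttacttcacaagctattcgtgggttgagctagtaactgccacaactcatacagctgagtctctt
Aif1: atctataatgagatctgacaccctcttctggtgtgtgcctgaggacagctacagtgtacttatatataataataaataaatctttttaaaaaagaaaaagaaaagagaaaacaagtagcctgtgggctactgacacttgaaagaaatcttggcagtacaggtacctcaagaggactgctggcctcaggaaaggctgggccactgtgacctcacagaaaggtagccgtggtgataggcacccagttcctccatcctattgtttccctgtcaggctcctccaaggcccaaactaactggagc

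A window was given for 7 of the 10 genes. The letters occurred in that of P2ry12, 52 bases before the start site, and in 1 of the 3 windows of Sall1, and they occurred in 9.35% of all 32851 windows. They were in none of the windows of P2ry13, Cx3cr1, Siglech, Olfml3 and Aif1, which says only that these letters are not in these stretches.

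Sall1, a zinc-finger transcription factor needed for microglial identity (chromosome 8, 89027235 to 89044162, minus strand), ran from 32.0 to 37.5 CPM in non-stroked WT and spread from 30.3 to 61.0 CPM in stroked WT. The log2 fold change was 0.34 ± 0.17 with a 95% interval of -0.00 to 0.68 (adjusted p = 0.132). Other cells of the brain can express Sall1 as well.

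In the same comparison, where 15.2% of all genes were higher and 11.6% lower, 17 of 20 other genes of the homeostatic set were higher, among them Lag3 (log2 fold change 2.07), Rnase4 (1.63), P2ry6 (1.60) and Fcrls (1.58), and 1, Gpr165, was lower (-0.60). All 12 shared myeloid genes, such as Tyrobp (2.76 ± 0.38), and all 16 disease-associated genes were higher, led by Clec7a (7.001 ± 0.955), Lgals3 (6.44 ± 0.98), Itgax (6.21 ± 0.81) and Cst7 (5.83 ± 0.73). These 4 genes had 1 to 18 counts in the non-stroked WT libraries and 204 to 1747 in the stroked ones, so that their fitted changes depend on few control counts. The medians of these lists were 0.82, 2.11 and 2.35 on the log2 scale. Among 10 transcription factors of microglia, Runx1 (2.03), Irf8 (1.64), Cebpa (1.51), Spi1, which encodes PU.1 (1.31), and Ikzf1 (1.23) were higher and Mef2c was lower (-0.57). Among 6 ligands and survival signals Tgfb1 (0.95), Csf1 (0.61) and Tgfb3 (0.42) were higher, Cx3cl1, the ligand of CX3CR1, was lower (-0.40), and Il34 did not pass (0.15). Of 10 other nucleotide receptors and ectoenzymes, 6 were higher, with P2ry6 (1.60) and P2ry1 (1.51) leading. Of 10 neuron genes 5 were lower and none was higher, while 5 of 6 T cell genes and 7 of 9 astrocyte genes were higher.

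Because most of the 10 genes rose while P2ry12 did not, each was also divided by Csf1r within its library, a measure chosen after the values were seen and given without a test. The ratio of P2ry12 to Csf1r, in CPM per kb, was 0.809 to 1.05 in non-stroked WT and 0.347 to 0.656 in stroked WT. It was 0.778 to 0.896 against 0.483 to 0.552 in Rag2-/-, and 1.09 to 1.24 against 0.636 to 0.892 in NSG. In each of these backgrounds no stroked library reached a non-stroked one. Csf1r itself rose in all of them, so the ratio of any gene that did not change falls as well. The share of all genes whose ratio separates in this way is not given here. The ratio in WT-Tacr libraries was 0.407 to 0.599 with acute and 0.279 to 0.357 with delayed treatment. Sall1 followed the same course, with a ratio of 0.427 to 0.497 without stroke and 0.168 to 0.364 after it in WT. The ratio of Tmem119 to Csf1r averaged 0.426 ± 0.0413 (SD, n = 4) in non-stroked and 0.443 ± 0.0261 (n = 4) in stroked WT. Cx3cr1 fell behind in WT (0.588 to 0.678 against 0.491 to 0.540) and in Rag2-/- (0.618 to 0.649 against 0.545 to 0.569), and its ranges overlapped in NSG (0.708 to 0.787 against 0.651 to 0.757). Aif1 gained on Csf1r in Rag2-/- (0.138 to 0.171 against 0.186 to 0.215) and in NSG (0.122 to 0.152 against 0.206 to 0.356), while its highest non-stroked WT library (0.154) reached the lowest stroked one (0.152).

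**Figure D2:**
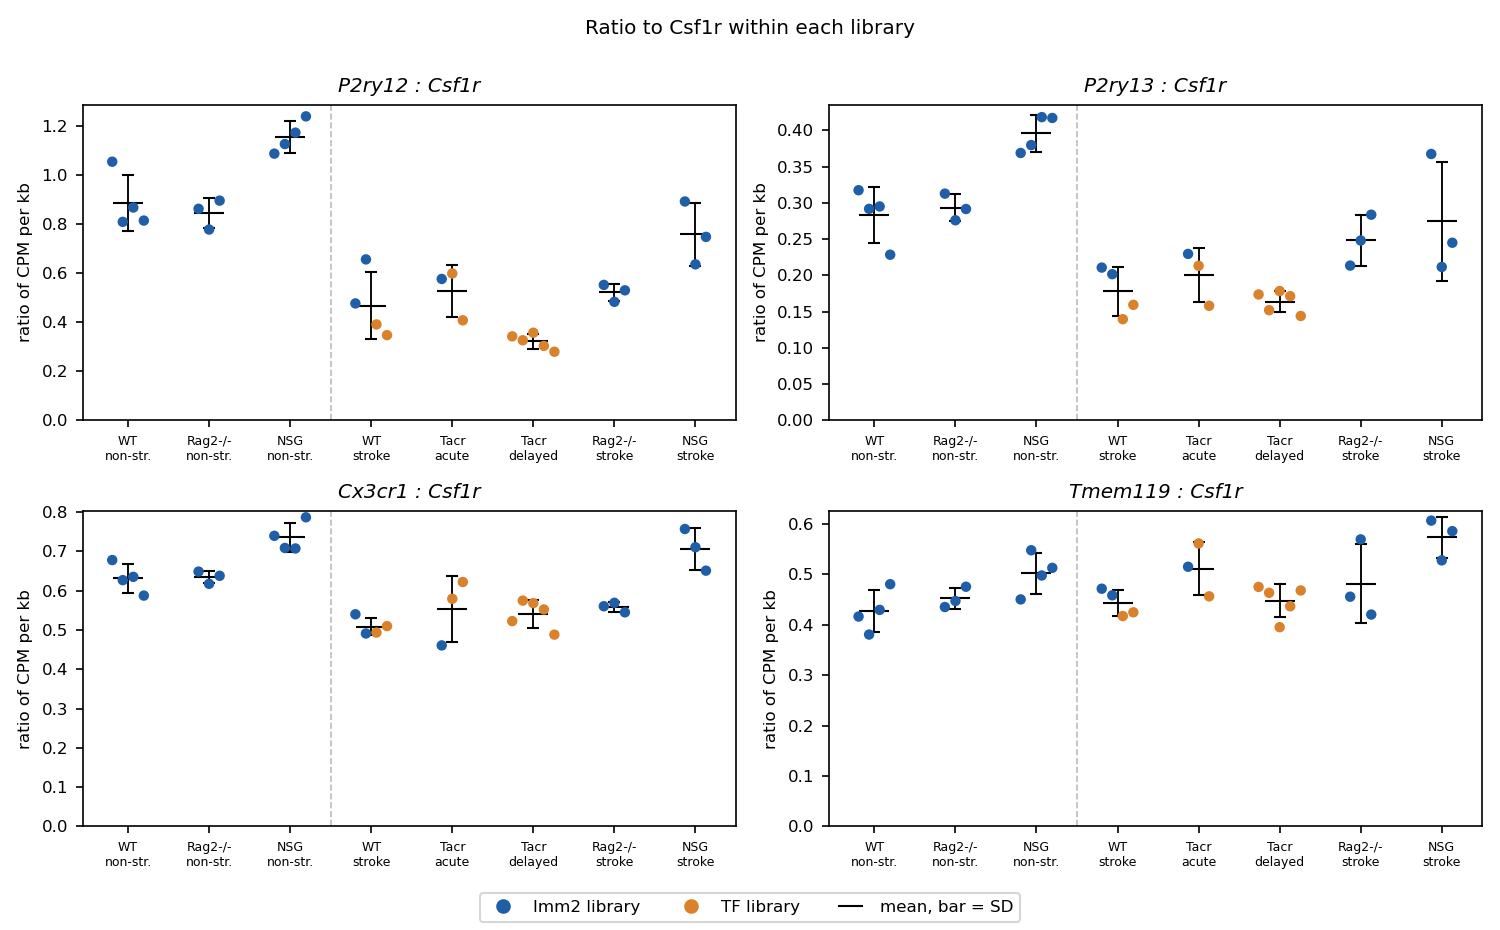
Ratio of P2ry12, P2ry13, Cx3cr1 and Tmem119 to Csf1r within each library (vertical axes, ratio of CPM per kb, from 0), by group; points are libraries coloured by cohort, with the mean and SD. The ratio of P2ry12 drops from 0.809 to 1.05 in non-stroked WT to 0.347 to 0.656 in stroked WT, while that of Tmem119 in WT lies between 0.380 and 0.480 without stroke and 0.417 and 0.471 after it.

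In Rag2-/- mice the comparison asked how the genes responded without mature T and B cells. After stroke 5 of the 10 genes were higher and none lower, where 6.71% of all genes were higher, and the libraries of the groups did not overlap for 7 of the 10 genes against 35.7% of all genes. Aif1 went from 3.94, 3.25 and 3.27 CPM to 9.24, 6.21 and 7.81 CPM (log2 fold change 1.15 ± 0.30, adjusted p = 0.0166). Olfml3 went from 20.5, 20.8 and 22.8 CPM to 52.6, 35.6 and 37.5 CPM (0.97 ± 0.20, adjusted p = 0.00274). For both genes the first stroked replicate was the highest. Csf1r rose from 86.9, 89.1 and 88.4 CPM to 162, 126 and 144 CPM (0.71 ± 0.14) and Tmem119 from 15.1, 15.96 and 16.8 CPM to 29.6, 28.8 and 24.3 CPM (0.79 ± 0.13). P2ry13 rose from 11.9, 10.8 and 11.3 CPM to 15.1, 13.7 and 17.9 CPM (0.46 ± 0.14, adjusted p = 0.0365). P2ry12 spanned 30.5 to 34.9 CPM without stroke and 26.9 to 39.5 CPM after it, a log2 fold change of 0.02 ± 0.15. Cx3cr1 (0.52 ± 0.18, adjusted p = 0.0643), Gpr34 (0.32 ± 0.27), Sall1 (0.22 ± 0.19) and Siglech (0.15 ± 0.15) did not pass. The call of P2ry13 was lost without any single library other than stroked replicate 2, and that of Aif1 without non-stroked replicate 2 or 4 or stroked replicate 1, which left 3 genes called in each of those cases. Shared myeloid genes were higher in 11 of 12 and disease-associated genes in 15 of 16, while border-associated macrophage genes were higher in 7 of 12 and none of 6 T cell genes passed. The choroid plexus sum ran from 9.63 to 13.95 CPM without stroke and reached 1664 CPM in stroked replicate 1.

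In NSG mice, which also lack NK cells, 5 of the 10 genes were higher after stroke and none was lower, where 13% of all genes were higher, and the groups did not overlap for 6 of the 10 genes against 25% of all genes. Olfml3 rose most, from 16.7, 17.4, 18.7 and 18.9 CPM to 46.7, 65.4 and 36.0 CPM (log2 fold change 1.46 ± 0.18, adjusted p = 1.92e-05). Aif1 went from 2.95, 3.76, 3.46 and 3.93 CPM to 12.1, 8.72 and 7.62 CPM (1.43 ± 0.27), and Tmem119 from 16.4, 20.4, 18.7 and 20.6 CPM to 31.3, 33.4 and 32.7 CPM (0.77 ± 0.12). Csf1r rose by 0.59 ± 0.13 (adjusted p = 0.00252) and Cx3cr1 by 0.52 ± 0.16 (adjusted p = 0.0226), a call that was lost without stroked replicate 1 or 2 or non-stroked replicate 2 or 3 (adjusted p up to 0.0853). P2ry12 was at 43.7, 46.2, 48.5 and 54.7 CPM without stroke and at 50.6, 44.3 and 45.9 CPM after it, within the non-stroked range. Its log2 fold change was -0.04 ± 0.14, and those of P2ry13 (0.03 ± 0.13), Sall1 (-0.16 ± 0.18), Siglech (0.21 ± 0.14) and Gpr34 (0.37 ± 0.25) did not pass either. Of the other homeostatic genes 11 of 20 were higher and Gpr165 was lower (-1.13), where 8.89% of all genes were lower, while all 12 shared myeloid genes and 7 of 12 border-associated macrophage genes were higher.

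**Figure D3:**
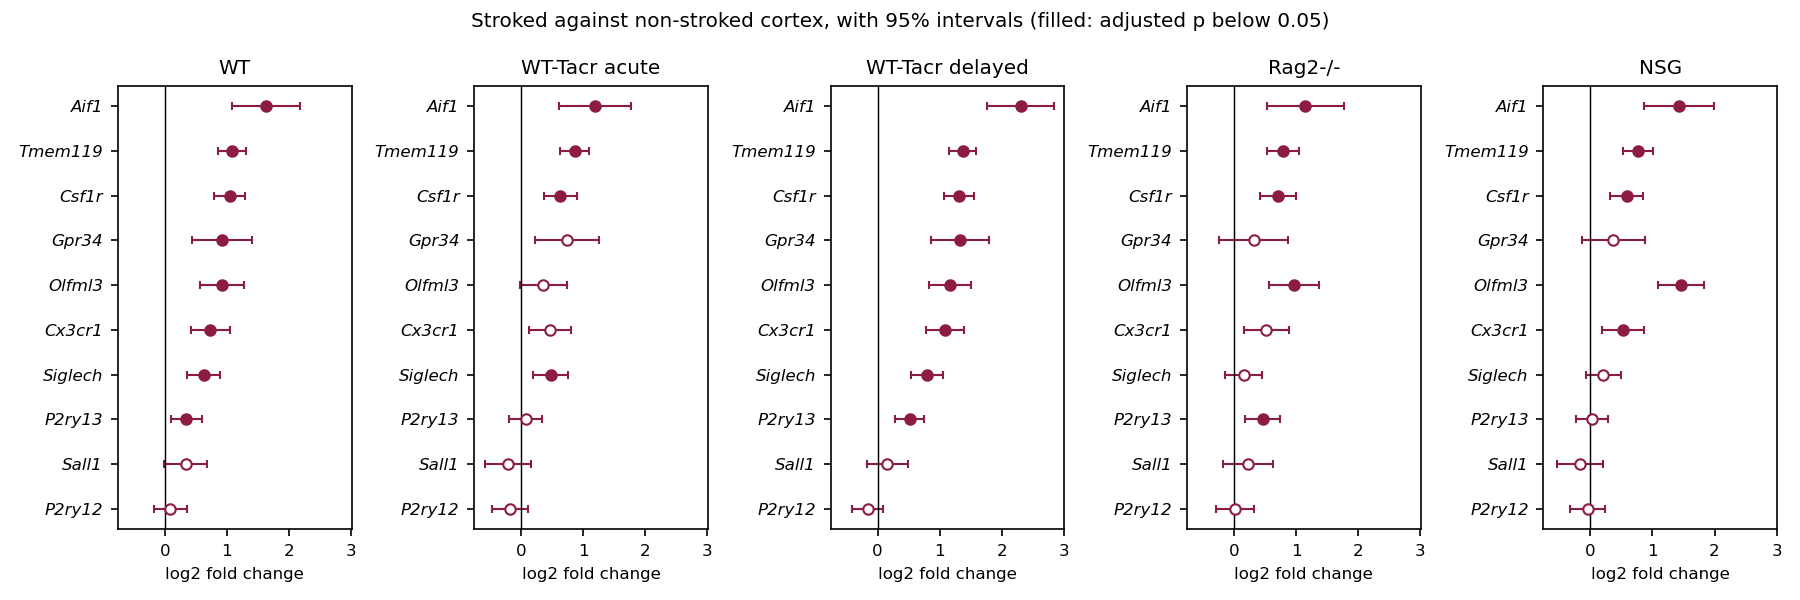
Log2 fold change (horizontal axes) of stroked against non-stroked cortex for the 10 genes in WT, WT-Tacr acute, WT-Tacr delayed, Rag2-/- and NSG; bars are 95% intervals and filled points passed at an adjusted p below 0.05. The WT-Tacr panels use the same non-stroked WT libraries as WT, and P2ry12 lies between -0.18 and 0.09 in all 5 panels.

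The difference between responses was tested directly, since a call in one strain and not in another does not show one. None of the 10 genes passed for NSG against WT, where 0.0294% of all genes did so in either direction (5 genes by edgeR, 137 by DESeq2, and 1143 higher and 1024 lower at an unadjusted p below 0.05). Before adjustment the largest differences for NSG were in Olfml3 (0.54 ± 0.25 greater on the log2 scale, adjusted p = 0.364), Gpr34 (-0.55 ± 0.34), Sall1 (-0.50 ± 0.25), Csf1r (-0.46 ± 0.18, adjusted p = 0.302) and Siglech (-0.42 ± 0.19). None passed for Rag2-/- against WT either, where 0% of all genes passed by edgeR and by DESeq2 (369 higher and 344 lower at an unadjusted p below 0.05). Siglech differed by -0.48 ± 0.20 there, with a 95% interval of -0.88 to -0.07 before adjustment and an adjusted p of 0.95. The strains share the stroked and non-stroked WT libraries in these comparisons, and 2 of the 4 stroked WT libraries were of cohort TF.

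Non-stroked cortex was compared between strains to learn whether the genes differed before injury. In NSG 3 of the 10 genes were higher than in WT, where 4.84% of all genes were higher, and the libraries did not overlap for 7 of the 10 genes against 21.8% of all genes. P2ry13 went from 11.5, 9.66, 11.3 and 8.08 CPM in WT to 14.7, 15.5, 17.2 and 18.3 CPM in NSG (log2 fold change 0.69 ± 0.12, adjusted p = 0.000216). P2ry12 was higher by 0.59 ± 0.13 (adjusted p = 0.00268), with NSG libraries at 43.7 to 54.7 CPM and WT libraries at 27.0 to 38.5 CPM. Tmem119 was higher by 0.44 ± 0.11 (adjusted p = 0.00816). Against Rag2-/-, 2 genes were higher in NSG, P2ry12 (0.56 ± 0.14, adjusted p = 0.0134) and P2ry13 (0.54 ± 0.13, adjusted p = 0.00981), where 3.07% of all genes were higher. Both calls were lost without non-stroked Rag2-/- replicate 2, and that of P2ry12 also without replicate 1, at log2 fold changes of no less than 0.48. These comparisons share the NSG libraries. Csf1r (0.21 ± 0.12 against WT), Siglech (-0.01 ± 0.13), Olfml3 (-0.18 ± 0.17) and Aif1 (0.45 ± 0.27) did not pass, and 0 of 12 shared myeloid genes passed. Between Rag2-/- and WT none of the 10 genes passed (adjusted p of 1 for each), where 0.00587% of all genes passed by edgeR, 2 genes passed by DESeq2, and 130 were higher and 219 lower at an unadjusted p below 0.05. The libraries did not overlap for 1 of the 10 genes, Gpr34 (7.66 to 8.15 CPM in Rag2-/- and 5.60 to 7.06 CPM in WT), against 9.44% of all genes.

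Of the 20 other homeostatic genes, 2 were higher in NSG than in WT and 1 was lower. Over all genes, 4.84% were higher and 4.92% lower. The summed level of the 20 genes ran from 1624 to 1778 CPM in NSG and from 1374 to 1488 CPM in WT. Such a sum follows its most abundant genes, and the cells it came from were not tested. The sum of the 12 shared myeloid genes overlapped, at 286 to 333 CPM in NSG and 273 to 328 CPM in WT. Slc2a5, a fructose transporter of microglia, was higher (0.65), as was the adhesion receptor Adgrg1 (0.52), and Fcrls, an Fc receptor-like gene, was lower (-1.31). From the separate list of nucleotide receptors and ectoenzymes, P2ry1, an ADP receptor found on astrocytes and neurons, was higher (1.54). The other members of that list are not counted here. Around the neighbours P2ry12 and P2ry13, 6 further genes within 500 kb were tested, a window chosen after the values were seen. None of them passed: Med12l, which spans both, stood at -0.11 ± 0.12, the next nucleotide receptor P2ry14 at -0.59 ± 0.23 (adjusted p = 0.117) and Igsf10 at 0.59 ± 0.29 (adjusted p = 0.22).

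**Figure D4:**
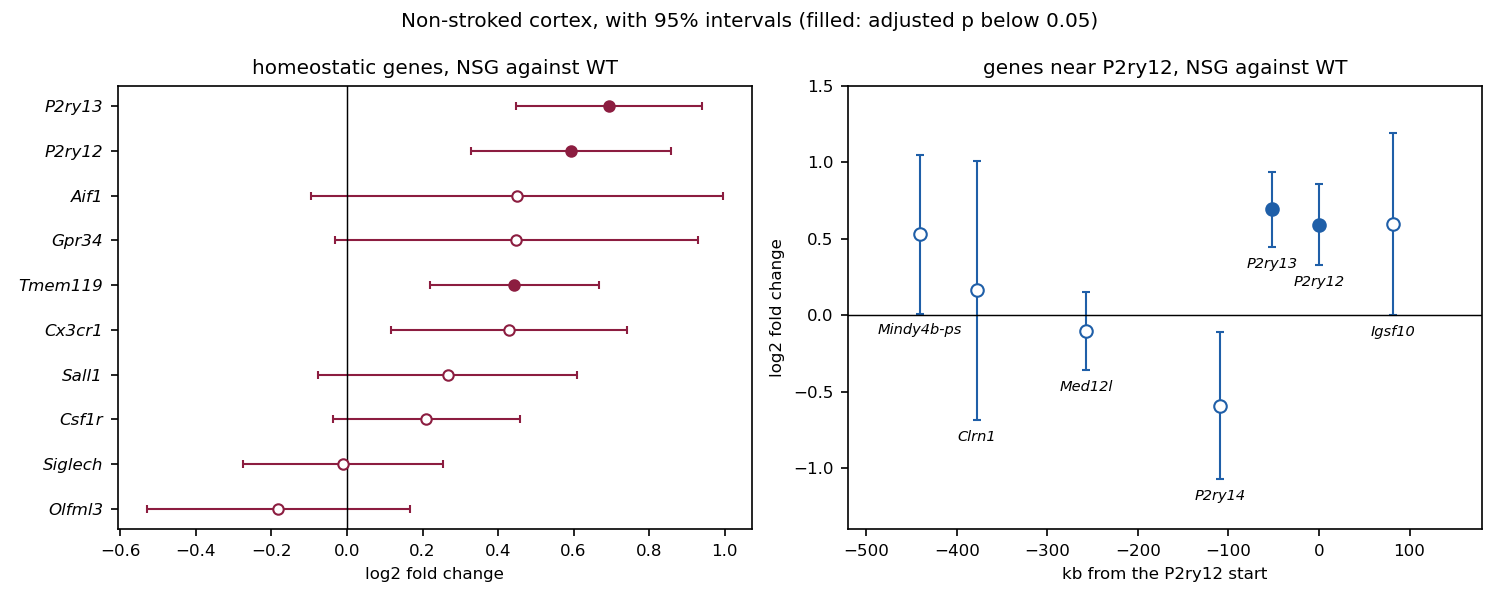
Left, log2 fold change of the 10 genes between non-stroked NSG and WT cortex; right, the same for genes tested within 500 kb of P2ry12, by distance in kb from its start (Gpr171, with an interval of -1.14 to 3.61, is left out). Bars are 95% intervals and filled points passed at an adjusted p below 0.05, and in the right panel only P2ry12 and P2ry13 are filled.

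Tacrolimus was given to ask how pharmacological immunosuppression altered the response. With acute treatment 4 of the 10 genes were higher than in non-stroked WT, where 6.18% of all genes were higher, and the groups did not overlap for 2 of the 10 genes against 19.6% of all genes. The 3 libraries were unlike each other: Aif1 was at 2.92, 4.37 and 10.5 CPM, Csf1r at 103, 108 and 169 CPM and Cx3cr1 at 37.0, 48.6 and 81.9 CPM in replicates 1, 2 and 3. Non-stroked WT reached 3.30 CPM of Aif1 and 43.8 CPM of Cx3cr1, so that replicate 1 lay within or near the non-stroked range for both. The genes that passed were Aif1 (log2 fold change 1.19 ± 0.28), Tmem119 (0.86 ± 0.12), Csf1r (0.63 ± 0.13) and Siglech (0.47 ± 0.14). Leaving out 1 library changed these calls: Siglech was lost without non-stroked replicate 3, 4 or 5, and Aif1 without non-stroked replicate 1. Without WT-Tacr acute replicate 3 only Tmem119 passed (0.68 ± 0.12, adjusted p = 0.00721), and with cohort as a covariate only Tmem119 did as well (0.66). Replicate 3 and replicate 2 were both of cohort TF. Shared myeloid genes summed to 442, 355 and 1241 CPM in the 3 libraries. These sums ran from 273 to 328 CPM in non-stroked WT and from 1002 to 1324 CPM in stroked WT.

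With delayed treatment 8 of the 10 genes were higher than in non-stroked WT, where 27.6% of all genes were higher, and the groups did not overlap for 8 of the 10 genes against 54% of all genes. Aif1 ran from 9.46 to 15.3 CPM with a median of 13.7 CPM (log2 fold change 2.30 ± 0.26) and Csf1r from 185 to 217 CPM (1.31 ± 0.12). Gpr34 (1.33 ± 0.23), Tmem119 (1.38 ± 0.11), Olfml3 (1.16 ± 0.16), Cx3cr1 (1.09 ± 0.15), Siglech (0.80 ± 0.12) and P2ry13 (0.52 ± 0.11) were also higher. P2ry12 ran from 25.8 to 33.8 CPM (-0.16 ± 0.12) and Sall1 from 30.5 to 48.4 CPM (0.16 ± 0.16), and neither passed. All 5 delayed libraries were of cohort TF and all non-stroked ones of Imm2, so that treatment, stroke and cohort cannot be told apart here.

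Set directly against stroked WT, none of the 10 genes passed with acute treatment, where 0% of all genes passed by edgeR (2 genes by DESeq2, and 941 higher and 1227 lower at an unadjusted p below 0.05). All 10 fitted values were below 0, from -0.56 ± 0.18 for Olfml3 and -0.55 ± 0.18 for Sall1 to -0.16 ± 0.14 for Siglech. Without replicate 3, which leaves 2 acute libraries, 6 genes were lower: Aif1 (-1.14 ± 0.23, adjusted p = 0.00382), Olfml3 (-0.91 ± 0.17), Sall1 (-0.77 ± 0.19), Csf1r (-0.67 ± 0.11), Cx3cr1 (-0.64 ± 0.13) and Tmem119 (-0.38 ± 0.12). Replicate 3 was the acute library whose summed level lay within that of stroked WT, so leaving it out widened the difference. Replicate 3 therefore decided the call. The share of all genes called in that refit is not given here, so the count cannot be read as particular to these genes. Within the cohorts Csf1r stood at -0.52 in Imm2 and -0.49 in TF, and Aif1 at -1.30 and -0.25, none past the threshold. Imm2 holds 1 WT-Tacr acute library, which was assumed to vary like the other groups of that cohort.

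Delayed treatment against stroked WT also gave 0 calls among the 10 genes, where 0% of all genes passed by edgeR (48 genes by DESeq2, and 1325 higher and 2130 lower at an unadjusted p below 0.05). Aif1 stood at 0.67 ± 0.24 and Tmem119 at 0.28 ± 0.10 (adjusted p = 0.161 for both), and P2ry12 at -0.24 ± 0.12 (adjusted p = 0.259). Delayed against acute treatment, 6 genes were higher, where 10.4% of all genes were higher: Aif1 (1.11 ± 0.27), Olfml3 (0.80 ± 0.18), Csf1r (0.68 ± 0.13), Cx3cr1 (0.62 ± 0.16), Tmem119 (0.52 ± 0.11) and P2ry13 (0.44 ± 0.13). None passed within cohort TF, with only the groups compared in the fit or with the choroid plexus level as a covariate. In each of these settings 0 of all genes passed, against 3465 higher or lower in the main fit. Leaving out acute replicate 1 or acute replicate 2 also left none of the 10, and 9 passed without acute replicate 3. Shares of all genes in these last refits are not given here. P2ry12 stood at 0.02 ± 0.13 between the schedules.

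Some of the genes also varied together from library to library. After the group mean was removed from log2 CPM, the 45 pairs of the 10 genes had Pearson correlations from -0.13 to 0.90 with a median of 0.47 over the 29 libraries. These libraries differ in depth and cohort, and the amount of lesion tissue in each was not measured. The values are a description. They include the spread within WT-Tacr acute, where Csf1r ran from 103 to 169 CPM. Csf1r and Cx3cr1 were the closest pair (0.90), and Gpr34, Olfml3, Tmem119 and Aif1 each followed Csf1r at 0.68 to 0.78. P2ry12 was close to P2ry13 (0.57) and Siglech (0.54) and far from Csf1r (0.25), Tmem119 (0.14) and Sall1 (-0.13).

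**Figure D5:**
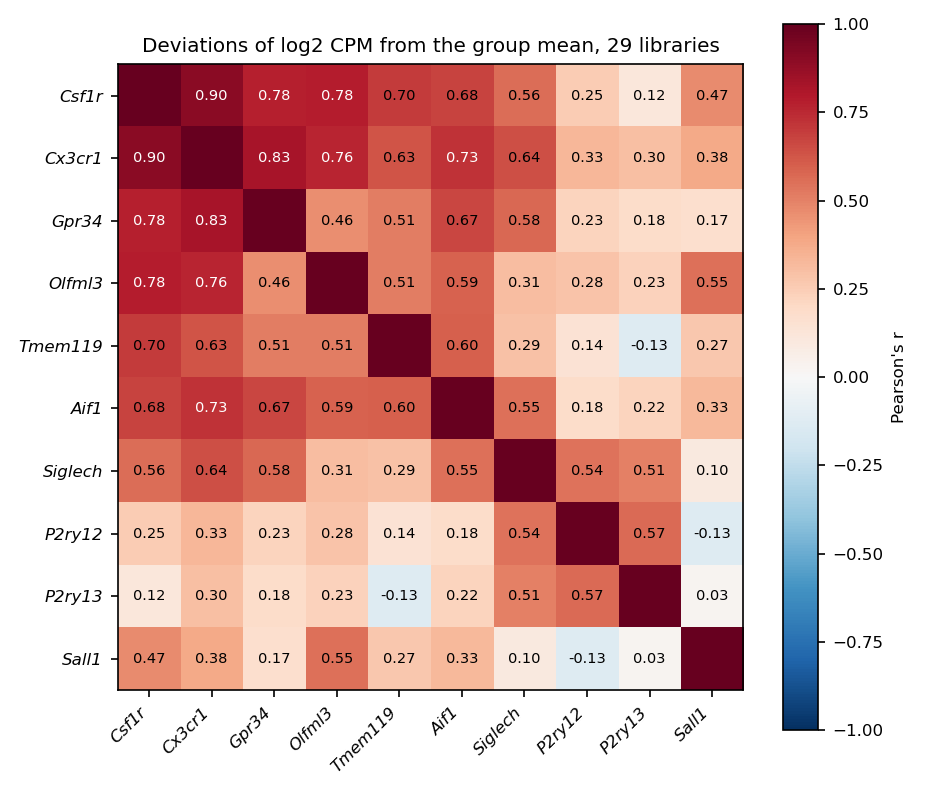
Pearson's r (colour and number) between the 10 genes over 29 libraries, after the group mean of log2 CPM was removed. Csf1r, Cx3cr1, Gpr34, Olfml3, Tmem119 and Aif1 form a block with r of 0.46 to 0.90, while P2ry12, P2ry13 and Sall1 lie apart from it, with r of no more than 0.47 to its members except for Sall1 with Olfml3 (0.55).

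Across all genes tested, the patterns most like that of Csf1r were Ifngr1 (0.93), Ccl6 (0.92) and Lpl (0.91), and among those most like Cx3cr1 were Csf1r (0.90) and Cd300c2 (0.88). Olfml3 was nearest to the tetraspanin Cd9 (0.91), Cnn3 (0.91) and Hexa (0.91), Aif1 to Cmtm7 (0.89), Sat1 (0.84) and S100a6 (0.84), Tmem119 to Atf3 (0.81), Cd300c2 (0.79) and Gm29094 (0.79), and Gpr34 to Sdcbp (0.90), Commd2 (0.89) and Ormdl2 (0.88). The nearest to P2ry12 were Eif2a (0.81), Dynlt3 (0.79) and Rftn2 (0.76), to P2ry13 Zfp105 (0.76), Smim11 (0.74) and Ttc4 (0.74), to Siglech Ndp (0.73), Pard6g (0.73) and Kif15 (0.72), and to Sall1 Ablim3 (0.87), Frmd7 (0.87) and Vipr2 (0.86).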

How the data were processed

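Bulk RNA sequencing was analysed for 29 cortex libraries in 8 groups, taken from the sample labels, with the stroked ones at 21 dpi. The deposited values were raw counts of reads per gene, made by the authors from stranded libraries of polyA RNA, 1 table per library; aligner, genome build and use of strand are not given in the sources used here. Gene names and positions came from GENCODE M21 on GRCm38, which held 25635 of 25746 identifiers.

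Counts were fitted with edgeR 4.0.16 (R 4.3.3): filterByExpr by group, TMM scaling and 1 quasi-likelihood fit of all 8 groups over 17031 genes, with Benjamini-Hochberg adjustment over all of them. A gene was called at an adjusted p below 0.05. SE is the absolute log2 fold change over the square root of F. DESeq2 1.42.0 was an alternative, and scripts were tested on simulated data. Totals of 17789044 to 43403413 counts limit precision by counting error only. Labels do not say how replicates were housed or extracted, so p-values measure the spread between these samples.

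All 10 genes were named in each comparison, with up to 4 genes per further list, genes overlapping a member and the 3 nearest patterns. Some genes that this rule names are not reported here. The genes and lists were chosen with earlier results of these data known. Replicate numbers of non-stroked groups did not pair the samples (correlations of deviations from -0.26 to 0.11). Chosen after seeing the data were 2 alternatives: a covariate for choroid plexus genes (log2 of 1 plus summed CPM), and the 16 libraries at or below 100 CPM of them.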

Additional observations from a re-analysis of the deposited data

Results flagged for a closer look

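In the 4 groups of 4 or 5 libraries, each of the 10 genes was tested for a library far from the others by Dixon's gap test at the 95% level, 40 tests in all, and 2 were past it; chance alone flags about 1 in 20. Cx3cr1 in non-stroked NSG replicate 4 stood at 61.5 CPM, with the other 3 libraries at 51.4 to 52.6 CPM. Gpr34 in WT-Tacr delayed replicate 3 stood at 21.1 CPM, with the other 4 libraries at 14.05 to 16.02 CPM. The causes were not tested.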

How the results depend on the processing

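Values are numbers of the 10 genes called. RLE scaling, no low-count filter and DESeq2 kept each count within 1.5 times, and no called gene changed sign in any setting. Also requiring a log2 fold change above 1 left 3 in WT, 1 in WT-Tacr acute, 1 in Rag2-/-, 2 in NSG, 1 in delayed against acute, and 0 in non-stroked NSG against WT and against Rag2-/-. In the same order, 1244, 440, 737, 933, 979, 573 and 477 of all 17031 genes were called under that rule. Cohort as a covariate gave 1 in WT-Tacr acute and 5 in non-stroked NSG against WT (2198 of all genes, 1662 in the main fit). Fitting only the groups compared gave 0 in WT-Tacr acute, 7 in non-stroked NSG against WT, 4 against Rag2-/- (1483 of all genes, 1078 in the main fit) and 0 in delayed against acute. Within Imm2, which holds 1 WT-Tacr acute library assumed to vary like the other groups, WT-Tacr acute gave 0, and within TF, delayed against acute gave 0. Over all genes the number called fell under the cohort covariate from 4579 to 2096 in WT, 1454 to 52 in WT-Tacr acute, 9393 to 1533 in WT-Tacr delayed and 3465 to 1583 in delayed against acute; fitting only the groups compared moved it to 35 in WT-Tacr acute, 792 from 3726 in NSG, 2455 from 1402 in Rag2-/-, 2511 from 1662 in non-stroked NSG against WT and 0 in delayed against acute; DESeq2 called 2188 in WT-Tacr acute, and 137 against 5 for the difference between NSG and WT responses, 48 against 0 in stroked WT-Tacr delayed against WT. The choroid plexus covariate gave 0 in delayed against acute and kept the other counts within 1.5 times. In delayed against acute, 0 of all genes passed under that covariate and within TF. The 16 libraries low in choroid plexus genes leave as few as 1 per group, and a lone library was there assumed to vary like the other groups. Wherever the main fit called any of the 10 genes, fewer of them and fewer of all genes were called there. The numbers are not given, since a lone library has no spread of its own. Apart from settings built on fewer samples, the cause was not tested.

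Leaving out 1 replicate gave 7 to 9 in WT, 1 to 6 in WT-Tacr acute, 3 to 5 in Rag2-/-, 4 to 5 in NSG, 0 to 2 in non-stroked NSG against Rag2-/-, 0 to 6 in stroked WT-Tacr acute against WT and 0 to 9 in delayed against acute. Shares of all genes called in these refits are not given here. The replicate number was also used as a block, which the labels do not say marks a shared batch. With the block, 2 genes were called in non-stroked NSG against WT, 0 in Rag2-/- against WT and 3 in NSG against Rag2-/-. Without the block on the same samples the last count was 4. Over all genes, 859, 36 and 1205 were called with the block and 1121, 1 and 1407 without it. Depth did not limit these genes, all at 72 counts or more.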
